A study of Mus musculus with 10 samples.

Results

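The 10 genes described here are targets of the hypoxia response that do not belong to glycolysis. They were chosen by symbol (*Hif1a*, *Egln1*, *Egln3*, *Vegfa*, *Pgf*, *Adm*, *Bnip3*, *P4ha1*, *P4ha2* and *Ndrg1*), and each symbol matched 1 row of the 43346 genes in the count table. The rule uses symbols and no measured value, but the genes were chosen with earlier results of these data known. Transcripts were counted in O9-1 cells, a mouse cell line of the cranial neural crest that the study describes as tetraploid. The 10 libraries came from 4 independent wildtype samples (wildtype libraries 1 to 4), 3 Kat5 ko clones (Kat5/1 to Kat5/3) and 3 Ep400 ko clones (Ep400/1 to Ep400/3), so that both knockouts were set against the same wildtype libraries. Kat5 is the histone acetyltransferase and Ep400 the ATPase of the Tip60/Ep400 complex, and the study asked how gene expression depends on each of them. Both genes had been edited with CRISPR/Cas9. Each clone was grown from a single sorted cell, whereas no cloning is described for the wildtype samples. According to the study, the Kat5 ko clones carried insertions or deletions with frameshifts in every allele. Of the Ep400 ko clones, Ep400/1 had frameshifts in every allele, Ep400/3 kept 1 allele with a deletion in frame, and Ep400/2 had such deletions in all alleles but 1. Cells were cultured on Matrigel without a drug or a hypoxic step being described, and the oxygen level of the cultures was not given in the sources used here.

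Cells sense oxygen through prolyl hydroxylases of the Egln family, which mark the transcription factor subunit *Hif1a* for degradation through the ubiquitin ligase subunit *Vhl* as long as oxygen is present. When oxygen is low, *Hif1a* accumulates, pairs with *Arnt* and binds short core motifs in the control regions of its targets. Besides glycolytic enzymes these include the vascular growth factor *Vegfa*, the vasoactive peptide *Adm*, the mitophagy receptor *Bnip3*, the collagen prolyl hydroxylase subunits *P4ha1* and *P4ha2*, and the hydroxylases *Egln1* and *Egln3*, which thereby restrain the response. The Tip60 complex is known as a coactivator of *Hif1a* in other cells. Because *Hif1a* protein is controlled mainly by its degradation, *Hif1a* transcripts do not report the amount of active factor.

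The core motifs that *Hif1a* recognises, ACGTG and GCGTG, were searched on both strands of the promoter windows that RefSeq gives for these genes (build GRCm38.p6, 250 bases before to 50 bases after an annotated start). A window was found for 9 of the 10 genes, with *Ndrg1* as the exception, and for *Vegfa* and *Pgf* there was a window at each of 2 starts. Of these 11 windows, 9 held at least 1 core and 7 held at least 2 cores. Among all 32851 windows of the same length, 43.8% held at least 1 core and 20.6% at least 2. All 9 genes had a core in at least 1 window, against 46.7% of all genes. Both cores hold the bases CG, and the windows of all genes were not matched in base composition or in expression in these cells. Hypoxia targets are in part known by such motifs, and a match describes letters and not a bound site. The windows below are those of the 3 genes that fell in the Ep400 ko clones (*Hif1a*, *P4ha1* and *P4ha2*), of *Pgf*, which differed between the knockouts, and of *Bnip3*, which held the largest number of cores among the 11 windows. They are written 5′ to 3′ on the strand of the gene, with cores in capitals, and CACGTG holds a core on each strand. They lie at chr12:73907617-73907916 (plus strand, *Hif1a*), chr10:59323046-59323345 (plus strand, *P4ha1*), chr11:54100674-54100973 (plus strand, *P4ha2*), chr12:85177264-85177563 (minus strand, *Pgf*) and chr7:138909457-138909756 (minus strand, *Bnip3*). The windows of *Hif1a*, *P4ha2* and *Pgf* lie wholly inside the bounds given below for each gene, so that their starts are not the outermost ones.
Hif1a: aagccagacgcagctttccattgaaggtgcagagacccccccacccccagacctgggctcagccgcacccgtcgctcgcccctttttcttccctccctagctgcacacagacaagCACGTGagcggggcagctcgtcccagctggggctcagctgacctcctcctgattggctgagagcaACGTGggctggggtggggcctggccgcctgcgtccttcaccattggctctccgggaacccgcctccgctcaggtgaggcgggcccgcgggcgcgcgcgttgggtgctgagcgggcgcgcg
P4ha1: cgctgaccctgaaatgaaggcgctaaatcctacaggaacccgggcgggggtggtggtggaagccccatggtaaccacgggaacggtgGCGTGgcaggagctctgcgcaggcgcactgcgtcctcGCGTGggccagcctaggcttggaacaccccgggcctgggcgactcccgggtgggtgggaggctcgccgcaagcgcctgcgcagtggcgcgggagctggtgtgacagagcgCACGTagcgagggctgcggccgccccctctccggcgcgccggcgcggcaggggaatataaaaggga
P4ha2: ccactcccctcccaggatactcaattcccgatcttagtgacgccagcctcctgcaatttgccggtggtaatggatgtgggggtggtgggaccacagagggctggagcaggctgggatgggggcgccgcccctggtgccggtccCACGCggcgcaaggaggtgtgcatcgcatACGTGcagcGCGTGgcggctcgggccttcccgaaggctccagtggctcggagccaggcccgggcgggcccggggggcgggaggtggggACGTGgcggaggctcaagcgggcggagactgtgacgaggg
Pgf: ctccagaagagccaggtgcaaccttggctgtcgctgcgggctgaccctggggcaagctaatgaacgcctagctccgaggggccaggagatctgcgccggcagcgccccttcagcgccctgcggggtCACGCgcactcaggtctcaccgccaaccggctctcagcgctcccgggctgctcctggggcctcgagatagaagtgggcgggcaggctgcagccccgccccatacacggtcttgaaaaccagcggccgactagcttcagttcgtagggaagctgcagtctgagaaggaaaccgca
Bnip3: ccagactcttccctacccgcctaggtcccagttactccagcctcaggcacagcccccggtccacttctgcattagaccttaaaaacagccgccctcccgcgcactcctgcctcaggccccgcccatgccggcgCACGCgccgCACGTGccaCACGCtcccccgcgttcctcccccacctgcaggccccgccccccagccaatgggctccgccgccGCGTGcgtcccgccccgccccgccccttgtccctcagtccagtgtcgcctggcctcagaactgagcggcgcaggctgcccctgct
Counted in these windows, *Bnip3* had 5 cores, *P4ha2* had 4, *Hif1a* and *P4ha1* had 3 each and *Pgf* had 1. Of the windows not printed, those of *Egln1* and *Adm* held 2 cores each and that of *Egln3* held 1. No core was found at the upstream start of *Vegfa* or at the other start of *Pgf*, whereas the window of a start inside *Vegfa* held 2.

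**Figure D1:**
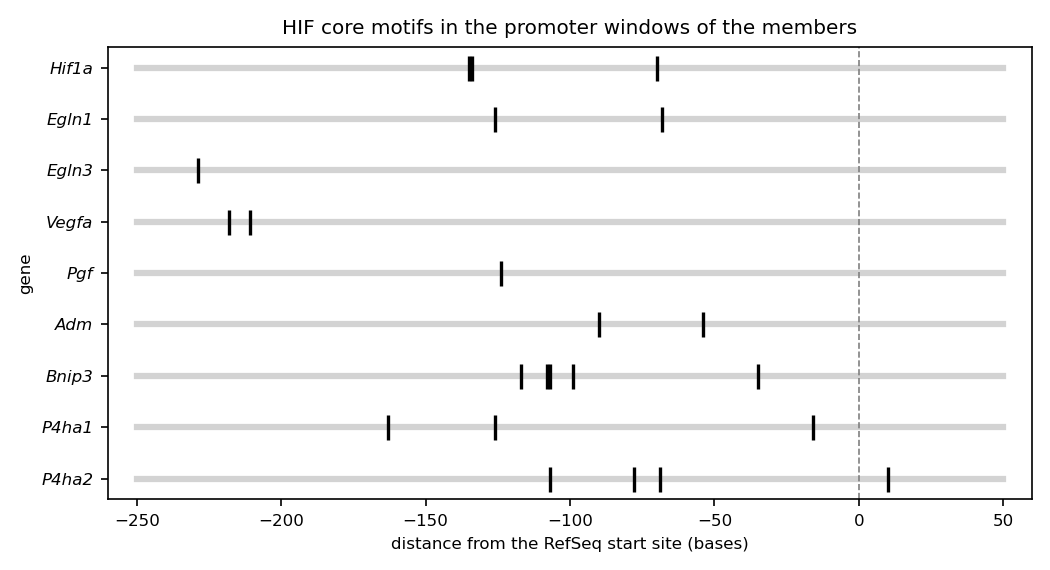
Position of each core motif (vertical marks) in the promoter windows of 9 genes, as distance in bases from the RefSeq start site; the grey bars span the window from 250 bases before to 50 bases after the start. Of 2 windows, the one with more cores is drawn, which for *Vegfa* is a start inside the gene. The drawn windows of *Hif1a*, *P4ha2* and *Pgf* also lie wholly inside the gene. All marks but the last of *P4ha2* (10 bases after the start) lie before the start site.

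Library totals ranged from 30968945 to 48301792 counts, and values are given as CPM (counts scaled to a common library size) after TMM scaling over all 10 libraries. *Kat5* transcripts were at 48.8 to 57.5 CPM in wildtype cells and at 22.9, 16.4 and 23.2 CPM in Kat5/1 to Kat5/3. *Ep400* transcripts were at 157 to 165 CPM in wildtype cells and at 54.7, 61.4 and 59.7 CPM in Ep400/1 to Ep400/3. Of 15 neural crest markers, 13 had a mean over 1 CPM. The markers summed to 1720 to 1970 CPM in wildtype, 1730 to 1930 CPM in Kat5 ko and 2440 to 3730 CPM in Ep400 ko libraries. *Prrx1*, *Cd44* and *Pdgfra* made up most of each sum, and single markers differed in direction. In Ep400 ko, *Pdgfra* was at 520 to 648 CPM against 105 to 136 CPM in wildtype. *Snai1* was at 14.2 to 16.9 CPM there against 17.2 to 24.1 CPM in wildtype. The early crest factors *Sox10* and *Foxd3* had no counts in any library. Summed endothelial markers did not exceed 1.61 CPM, blood markers 7.81 CPM, epithelial markers 1.21 CPM, neuronal markers 0.496 CPM and glial markers 7.02 CPM. Wildtype library 3 stood apart from the other wildtype libraries in its *Msx1* level (49.0 against 5.26 to 7.46 CPM) and its *Tfap2b* level (20.3 against 0.926 to 1.94 CPM). Kat5/1 stood apart from the other Kat5 ko clones: edgeR called 67 of 13434 genes with all clones and 2651 of 13703 without Kat5/1. In bulk RNA, a lower level in every cell and a smaller share of cells with the transcript cannot be told apart.

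Per length of transcript, *Hif1a* and *P4ha1* were the most abundant of the 10 genes in wildtype cells, and *Adm* and *Pgf* the least. *Hif1a* stood at 41.5 ± 4.59 CPM per kb of exon (SD, n = 4), *P4ha1* at 39.0 ± 12.8, *Egln1* at 26.9 ± 2.73, *Bnip3* at 24.7 ± 5.55 and *Vegfa* at 23.5 ± 4.89. The wildtype range of each of these overlapped with that of the next. In order of the means followed *Ndrg1* at 15.0 ± 3.84, *Egln3* at 10.9 ± 7.59 and *P4ha2* at 7.50 ± 1.19 CPM per kb. *Ndrg1* did not overlap with *Vegfa*, but *Egln3* ranged from 5.08 to 21.3 CPM per kb and so overlapped with *Vegfa* and *Bnip3* above it and with *Adm* below. *Adm* and *Pgf* came last with 3.18 ± 1.89 and 3.12 ± 0.448 CPM per kb. In the Ep400 ko clones *Hif1a* had the highest mean, at 24.0 ± 2.13 CPM per kb (SD, n = 3), and did not overlap with *Egln1* at 20.5 ± 1.42, although single clones of *P4ha1*, *Bnip3* and *Pgf* reached its range, whereas *P4ha2* at 2.64 ± 0.382 and *Egln3* at 2.02 ± 2.03 came last. In the Kat5 ko clones the order began with *P4ha1* at 36.2 ± 14.6, *Hif1a* at 33.9 ± 11.2 and *Egln1* at 31.5 ± 6.22 and ended with *Pgf* at 0.365 ± 0.320 CPM per kb, below the range of every other gene of the list in these clones.

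The 10 genes varied to different degrees between libraries of the same group. Their median coefficient of variation was 21.6% in wildtype, 45.9% in Kat5 ko and 34.3% in Ep400 ko libraries, and the median over all expressed genes was 16.9%, 25.2% and 24.6%. In the Kat5 ko clones 9 of the 10 genes lay above the median of all genes, and 6 did so in each of the other groups, close to an even split. The wildtype samples alone spanned a 4.20-fold range for *Egln3*, 3.70-fold for *Adm*, 2.17-fold for *P4ha1*, 1.95-fold for *Ndrg1* and 1.75-fold for *Bnip3*, but only 1.24-fold for *Egln1* and 1.30-fold for *Hif1a*. Wildtype library 2 had the highest level of *Egln1*, *Egln3*, *Bnip3*, *P4ha1*, *P4ha2* and *Ndrg1*, and wildtype library 3 the highest level of *Hif1a*, *Vegfa*, *Pgf* and *Adm*.

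**Figure D2:**
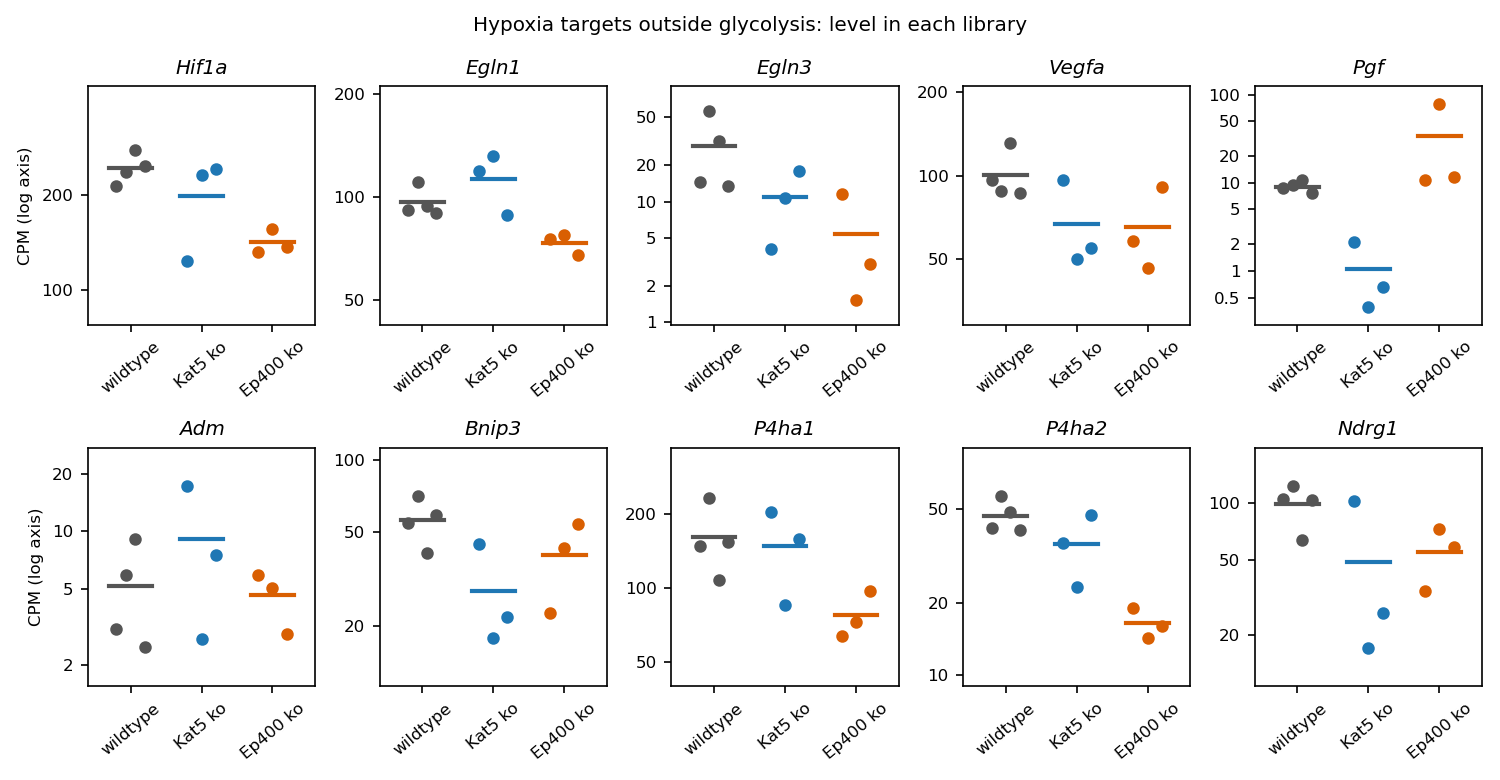
Level of the 10 genes in CPM (logarithmic axis, with a range of its own for each gene), with 1 point per library and a horizontal line at the group mean: 4 wildtype libraries, 3 Kat5 ko clones and 3 Ep400 ko clones. For *Hif1a*, *Egln1*, *Egln3*, *P4ha1* and *P4ha2* all Ep400 ko clones lie below all wildtype libraries, and for *Pgf* all Kat5 ko clones lie below and all Ep400 ko clones above them.

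To ask which of the genes depended on each subunit, each knockout was compared with wildtype by the quasi-likelihood test of edgeR. P-values were adjusted over all genes tested by the Benjamini-Hochberg method, and an adjusted p of at most 0.05 was the threshold. In the Ep400 ko clones 3 of the 10 genes passed, all lower: *P4ha2* (2.84-fold lower), *P4ha1* (2.07-fold lower) and *Hif1a* (1.73-fold lower). Over all 13836 genes tested, 13.9% passed, and 5.76% passed and were lower. For 6 of the 10 genes the Ep400 ko clones did not overlap with the wildtype libraries, against 30.2% of all genes, and 5 of these lay below, against 14.1% of all genes. Counted without regard to the threshold, 9 of the 10 fold changes were negative. The median log2-fold change was −0.71 over the 10 genes and 0.0428 over all genes tested. With DESeq2, 6 of the 10 genes passed, against 22.7% of all genes, with *Egln1*, *Egln3* and *Ndrg1* in addition. With single libraries left out, edgeR called 2 to 5 of the 10 genes, and the 5 were reached without Ep400/3, where *Vegfa* and *Pgf* passed as well.

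In the Kat5 ko clones edgeR called 0 of the 10 genes, in a comparison in which 0.499% of 13434 genes passed. At an unadjusted p of at most 0.05 there were 4 (*Pgf*, *Bnip3*, *Egln3* and *Vegfa*), against 22.3% of all genes. DESeq2 called 2 (*Pgf* and *Bnip3*), against 11.6% of all genes, and limma-voom called 1 (*Pgf*), against 0.729%. For 1 of the 10 genes, again *Pgf*, the Kat5 ko clones did not overlap with wildtype, against 19.9% of all genes. The median log2-fold change was −0.519 over the 10 genes and 3.24e-05 over all genes tested. Without Kat5/1 edgeR called 4 of the 10 genes (*Pgf*, *Ndrg1*, *Bnip3* and *Vegfa*, all lower), in a comparison in which 19.3% of all genes passed. The count was 0 when any other library was left out.

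**Figure D3:**
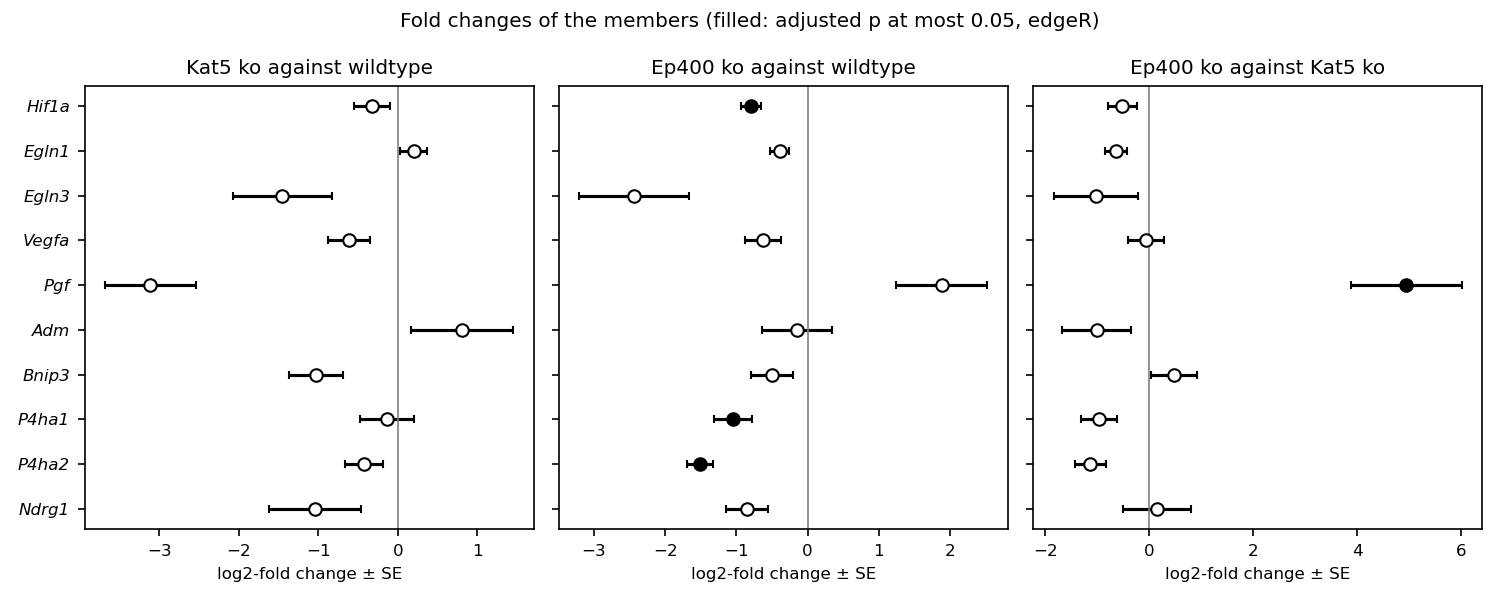
Log2-fold change with its standard error for each of the 10 genes in the 3 comparisons, by edgeR's quasi-likelihood test; filled points passed an adjusted p of at most 0.05, and each panel has its own horizontal range. Filled are *Hif1a*, *P4ha1* and *P4ha2* for Ep400 ko against wildtype and *Pgf* for Ep400 ko against Kat5 ko.

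*Hif1a* (ENSMUSG00000021109, GRCm38 chromosome 12, 73901375 to 73947530, plus strand) encodes the subunit of the factor that oxygen controls. It was at 214, 237, 279 and 248 CPM in wildtype libraries 1 to 4 and at 132, 156 and 137 CPM in Ep400/1 to Ep400/3. All Ep400 ko clones were thus below all wildtype libraries, with a log2-fold change of −0.79 (SE 0.145, adjusted p = 0.0119, edgeR). In a fit of all 10 libraries the adjusted p was 0.0517 (edgeR). Kat5/1 had 124 CPM, less than any Ep400 ko clone, whereas Kat5/2 and Kat5/3 with 232 and 243 CPM were within the wildtype range. The log2-fold change for Kat5 ko was −0.33 (SE 0.230, adjusted p = 0.432, edgeR) and did not exceed the spread of the clones; without Kat5/1 it was −0.075 (adjusted p = 0.72, edgeR). In Kat5/1 the median of 408 genes on chromosome 12 was also lower, by −0.271 on the log2 scale relative to the wildtype mean, while *Hif1a* differed there by −0.978. In the Ep400 ko clones the medians of chromosome 12 were −0.0866, 0.117 and −0.065. The antisense gene *Gm15283* shares 330 exon bases with *Hif1a*, and as the strand setting of the counting was not given in the sources used here, reads of this stretch cannot be assigned to either.

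The prolyl hydroxylases that act on *Hif1a* differed from each other in how widely they spread. *Egln1* (ENSMUSG00000031987, chromosome 8, 124908587 to 124949324, minus strand), the main oxygen sensor, was at 92.0, 111, 94.2 and 89.7 CPM in wildtype libraries and at 75.8, 77.6 and 68.0 CPM in Ep400/1 to Ep400/3. The Ep400 ko clones were all below wildtype, but the log2-fold change of −0.39 (SE 0.131, adjusted p = 0.0796, edgeR) did not pass the threshold. In Kat5/1 to Kat5/3 *Egln1* was at 119, 132 and 88.7 CPM, with clones on either side of the wildtype range. *Egln3* (ENSMUSG00000035105, chromosome 12, 54178981 to 54203860, minus strand), an inducible relative, was at 14.6, 56.8, 31.5 and 13.5 CPM in wildtype libraries, at 4.05, 10.7 and 17.9 CPM in Kat5/1 to Kat5/3 and at 11.5, 1.53 and 3.04 CPM in Ep400/1 to Ep400/3. The Ep400 ko clones were again all below wildtype, with a log2-fold change of −2.43 (SE 0.773, adjusted p = 0.0697, edgeR) that missed the threshold. It passed in edgeR without Ep400/1, at −3.67 (adjusted p = 0.0221). For Kat5 ko the log2-fold change of *Egln3* was −1.45 (SE 0.626, adjusted p = 0.219, edgeR), with Kat5/3 inside the wildtype range.

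Of the other genes of oxygen sensing, *Hif1an*, which encodes the asparagine hydroxylase that blocks the coactivator contact of *Hif1a*, rose in the Ep400 ko clones. It had 79.2 ± 6.62 CPM (SD, n = 3) there and 51.5 ± 2.92 CPM (SD, n = 4) in wildtype, a log2-fold change of 0.62 (adjusted p = 0.0152, edgeR), and 51.8 ± 8.51 CPM in Kat5 ko. Of 16 tested genes of this list, 1 (*Hif1an*) rose and 1 (*Hif1a*) fell in Ep400 ko, where 13.9% of all genes passed. The partner subunit *Arnt* was at 70.8 ± 4.67 CPM in wildtype, 59.9 ± 1.22 CPM in Kat5 ko and 64.0 ± 18.2 CPM in Ep400 ko, and the ligase subunit *Vhl* at 24.0 ± 1.504, 26.1 ± 3.30 and 25.4 ± 3.86 CPM. Neither passed in any comparison (adjusted p of 0.228 or more, edgeR). For *Arnt* all Kat5 ko clones nevertheless lay below all wildtype libraries, in a comparison in which 19.9% of all genes did not overlap. *Epas1*, which encodes the related HIF2 subunit, was low throughout, with 0.415 to 2.40 CPM in wildtype, 0.0551 to 0.857 CPM in Kat5 ko and 2.03 to 6.05 CPM in Ep400 ko. Its adjusted p was 0.0799 for Ep400 ko and 0.314 for Kat5 ko (edgeR). For Kat5 ko edgeR called 0 of the 16 genes, with 3 at an unadjusted p of at most 0.05, 2 by DESeq2 and 0 by limma-voom. Over all genes these shares were 0.499%, 22.3%, 11.6% and 0.729%.

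Among the secreted ligands, *Vegfa* and *Pgf* bind the receptor *Flt1*, and *Adm* acts through another receptor. *Vegfa* (ENSMUSG00000023951, chromosome 17, 46016993 to 46032369, minus strand) was at 96.8, 87.7, 131 and 86.7 CPM in wildtype libraries, at 96.4, 50.02 and 54.7 CPM in Kat5/1 to Kat5/3 and at 58.2, 46.6 and 90.7 CPM in Ep400/1 to Ep400/3. In each knockout 2 clones were below the wildtype range and 1 (Kat5/1 and Ep400/3) was within it. The log2-fold changes of −0.61 (SE 0.266, adjusted p = 0.221) for Kat5 ko and −0.63 (SE 0.251, adjusted p = 0.124) for Ep400 ko did not pass in edgeR. They passed without the clone in question, at −0.98 without Kat5/1 (adjusted p = 0.0186, edgeR) and at −0.95 without Ep400/3 (adjusted p = 0.0287, edgeR). The median of chromosome 17 was lower by −0.346 in Kat5/3 and by −0.304 in Ep400/2 on the log2 scale. With the median of each chromosome taken off as an offset, the change of *Vegfa* was −0.51 for Kat5 ko (adjusted p = 0.226, edgeR) and −0.52 for Ep400 ko (adjusted p = 0.178, edgeR).

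*Pgf* (ENSMUSG00000004791, chromosome 12, 85166635 to 85177790, minus strand), the placental growth factor, was at 8.62, 9.36, 10.6 and 7.55 CPM in wildtype libraries. In Kat5/1 to Kat5/3 it was at 2.12, 0.395 and 0.661 CPM, and in Ep400/1 to Ep400/3 at 10.8, 78.0 and 11.6 CPM. All Kat5 ko clones were below and all Ep400 ko clones above the wildtype range, although Ep400/1 and Ep400/3 exceeded the highest wildtype library by little and Ep400/2 stood far above them. For Kat5 ko the log2-fold change was −3.11 (SE 0.57, 8.63-fold lower), the largest in size among the 10 genes in this comparison, with an adjusted p of 0.057 in edgeR, 0.0366 in limma-voom and 3.76e-07 in DESeq2. Without Kat5/1 it was −4.10 (adjusted p = 0.00313, edgeR). For Ep400 ko the log2-fold change was 1.89 (SE 0.641, adjusted p = 0.0837, edgeR), and DESeq2 gave no adjusted p for it. It was 2.31 without Ep400/1 (adjusted p = 0.0385, edgeR), 2.29 without Ep400/3 (adjusted p = 0.0483, edgeR) and 0.287 without Ep400/2.

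*Adm* (ENSMUSG00000030790, chromosome 7, 110627661 to 110629820, plus strand), the peptide adrenomedullin, was low and scattered, with 3.07, 5.92, 9.16 and 2.47 CPM in wildtype libraries, 17.2, 2.74 and 7.54 CPM in Kat5/1 to Kat5/3 and 5.93, 5.06 and 2.91 CPM in Ep400/1 to Ep400/3. The groups overlapped. The log2-fold changes were 0.81 (SE 0.641, adjusted p = 0.489) for Kat5 ko and −0.15 (SE 0.491, adjusted p = 0.854) for Ep400 ko in edgeR. The first was −0.035 without Kat5/1, and the second 0.27 without wildtype library 3 and 0.092 without Ep400/3, so that the direction of both turned with 1 library left out.

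Receptors of these ligands were measured as well. *Flt1*, the receptor for *Vegfa* and *Pgf*, fell in the Ep400 ko clones to 75.0 ± 9.84 CPM (SD, n = 3) from 151 ± 43.4 CPM in wildtype (SD, n = 4), a log2-fold change of −1.01 (adjusted p = 0.0346, edgeR), and was at 148 ± 59.0 CPM in Kat5 ko. In wildtype library 3 it was at 86.0 CPM, close to the Ep400 ko clones, and in the other wildtype libraries at 168 to 178 CPM. Without wildtype library 3 the change was −1.21 (adjusted p = 0.00649, edgeR), and it did not pass when any other library was left out. *Kdr*, the main signalling receptor for *Vegfa*, had no counts in wildtype and at most 0.0938 CPM in any clone. *Calcrl*, the receptor that binds *Adm* together with a Ramp protein, rose in Ep400 ko to 24.6 ± 5.12 CPM from 5.12 ± 3.75 CPM, a log2-fold change of 2.26 (adjusted p = 0.0349, edgeR). Of 16 tested genes of this list, 2 rose and 1 fell in Ep400 ko, where 13.9% of all genes passed. The other that rose was *Angptl4*, a secreted regulator of lipoprotein lipase (log2-fold change 1.29, adjusted p = 0.0402, edgeR). For Kat5 ko edgeR called 1 gene of this list, DESeq2 called 4 and limma-voom 2, against 0.499%, 11.6% and 0.729% of all genes. The call by edgeR was *Edn1*, which encodes the vasoconstrictor endothelin and rose to 4.20 ± 1.84 CPM from 0.547 ± 0.210 CPM (log2-fold change 2.90, adjusted p = 0.0442, edgeR).

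*Bnip3* (ENSMUSG00000078566, chromosome 7, 138890836 to 138909519, minus strand) encodes a receptor of the outer mitochondrial membrane for mitophagy. It was at 54.3, 70.8, 40.4 and 58.6 CPM in wildtype libraries, at 44.4, 17.8 and 21.6 CPM in Kat5/1 to Kat5/3 and at 22.6, 42.5 and 54.0 CPM in Ep400/1 to Ep400/3. Kat5/2, Kat5/3 and Ep400/1 lay below the wildtype range, and the other clones lay in it. The log2-fold change was −1.03 for Kat5 ko (SE 0.339, adjusted p = 0.138, edgeR; 0.0335 in DESeq2) and −0.50 for Ep400 ko (SE 0.299, adjusted p = 0.28, edgeR). Without Kat5/1 the change for Kat5 ko was −1.54 (adjusted p = 0.00875, edgeR). The antisense gene *Gm45507* shares 504 exon bases with *Bnip3* and is not a row of the count table. The relative *Bnip3l* was at 152 ± 20.7 CPM in wildtype, 123 ± 14.4 CPM in Kat5 ko and 168 ± 11.8 CPM in Ep400 ko and passed in neither. In the list for mitophagy and cell death, *Fam162a*, a mitochondrial protein linked to cell death in hypoxia, fell in Ep400 ko to 33.8 ± 5.61 CPM from 80.7 ± 30.0 CPM (adjusted p = 0.0286, edgeR). For Kat5 ko edgeR called 0 of 6 tested genes of this list, with 2 at an unadjusted p of at most 0.05, 2 by DESeq2 and 0 by limma-voom. The shares of all genes were 0.499%, 22.3%, 11.6% and 0.729%.

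*P4ha1* and *P4ha2* encode alternative catalytic subunits of collagen prolyl 4-hydroxylase, an enzyme of the endoplasmic reticulum that uses oxygen and stabilises the collagen triple helix. *P4ha2* (ENSMUSG00000018906, chromosome 11, 54100095 to 54131665, plus strand) was at 41.6, 56.6, 48.5 and 40.6 CPM in wildtype libraries and at 19.1, 14.4 and 16.0 CPM in Ep400/1 to Ep400/3. The highest Ep400 ko clone thus lay far below the lowest wildtype library. The log2-fold change of −1.51 (SE 0.182, adjusted p = 0.00329, edgeR) had the lowest adjusted p among the 10 genes in the 3 comparisons. Genes on chromosome 11 had medians of −0.19, −0.20 and −0.251 in these clones on the log2 scale, and with the median of each chromosome taken off as an offset the change of *P4ha2* was −1.30 (adjusted p = 0.00504, edgeR). In Kat5/1 to Kat5/3 *P4ha2* was at 36.0, 23.4 and 47.3 CPM, a log2-fold change of −0.43 (SE 0.243, adjusted p = 0.336, edgeR) with Kat5/3 inside the wildtype range.

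*P4ha1* (ENSMUSG00000019916, chromosome 10, 59323296 to 59373304, plus strand) was at 148, 233, 107 and 153 CPM in wildtype libraries, at 63.7, 72.4 and 97.1 CPM in Ep400/1 to Ep400/3 and at 204, 84.8 and 158 CPM in Kat5/1 to Kat5/3. The Ep400 ko clones were all below wildtype, with Ep400/3 close to wildtype library 3. Their log2-fold change was −1.05 (SE 0.269, adjusted p = 0.0365, edgeR). It did not pass in a fit of all 10 libraries (adjusted p = 0.07, edgeR), and it no longer passed when wildtype library 1, 2 or 4 or clone Ep400/1 or Ep400/2 was left out, with adjusted p between 0.0648 and 0.0846 in edgeR and log2-fold changes between −1.09 and −0.81. In Kat5 ko, the log2-fold change was −0.14 (SE 0.334, adjusted p = 0.843, edgeR), with clones on both sides of the wildtype mean.

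The collagen list held further genes that changed in the Ep400 ko clones. Of 12 tested genes for collagen hydroxylation, crosslinking and folding, 5 fell and 1 rose, where 13.9% of all genes passed. Besides *P4ha1* and *P4ha2*, the lysyl oxidase relative *Loxl2* fell to 15.2 ± 13.3 CPM (SD, n = 3) from 76.0 ± 14.1 CPM (SD, n = 4), with a log2-fold change of −2.32 (adjusted p = 0.039, edgeR), and the lysyl hydroxylase *Plod2* fell to 14.3 ± 2.43 CPM from 36.3 ± 18.2 CPM, with a log2-fold change of −1.34 (adjusted p = 0.0368, edgeR). *P4hb*, the subunit that pairs with *P4ha1* and *P4ha2* in the enzyme, was at 488 ± 31.2 CPM against 656 ± 54.8 CPM (adjusted p = 0.0776, edgeR), and *P4ha3*, a further catalytic subunit, was at 7.03 ± 2.34 CPM against 3.25 ± 0.756 CPM (adjusted p = 0.0582, edgeR). For Kat5 ko 0 of the 12 genes passed in edgeR, and likewise 0 at an unadjusted p of at most 0.05, 0 by DESeq2 and 0 by limma-voom. Of all genes, 0.499%, 22.3%, 11.6% and 0.729% did so.

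*Ndrg1* (ENSMUSG00000005125, chromosome 15, 66929318 to 66969640, minus strand), a stress-responsive gene linked to differentiation, was at 105, 124, 63.5 and 105 CPM in wildtype libraries. It was at 103, 17.1 and 26.2 CPM in Kat5/1 to Kat5/3 and at 34.0, 72.5 and 58.6 CPM in Ep400/1 to Ep400/3. The Kat5 ko clones thus spanned a 6.04-fold range, from a wildtype level in Kat5/1 to well below it in the other two. The log2-fold change for Kat5 ko was −1.04 (SE 0.575, adjusted p = 0.317, edgeR), and without Kat5/1 it was −2.23 (adjusted p = 0.00671, edgeR). For Ep400 ko it was −0.85 (SE 0.296, adjusted p = 0.0883, edgeR), and without wildtype library 3 it was −1.02 (adjusted p = 0.0486, edgeR). The median of chromosome 15 was −0.349, 0.0897 and 0.248 in Kat5/1 to Kat5/3 on the log2 scale. Whether it bears on the *Ndrg1* levels of these clones was not tested. *Gm2895* and *Gm17035* share 137 and 419 exon bases with *Ndrg1* on the opposite strand.

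Clone by clone, the 10 genes were counted by whether they lay outside the wildtype range. In Ep400/1 8 genes lay below and 1 above, in Ep400/2 6 below and 1 above, and in Ep400/3 6 below and 1 above. Of all 14079 expressed genes, 29.5%, 31.7% and 34.3% lay below in these clones and 31.9%, 33.2% and 37.4% above. In Kat5/1 4 genes lay below and 2 above, in Kat5/2 7 below and 1 above, and in Kat5/3 5 below, with 27.7%, 34.1% and 31.9% of all genes below and 27.8%, 33.6% and 33.2% above. *Pgf* lay below in all Kat5 ko clones. *Egln3* and *P4ha2* lay below in Kat5/1 and Kat5/2, *Ndrg1*, *Bnip3* and *Vegfa* in Kat5/2 and Kat5/3, *Hif1a* in Kat5/1, *P4ha1* in Kat5/2 and *Egln1* in Kat5/3.

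**Figure D4:**
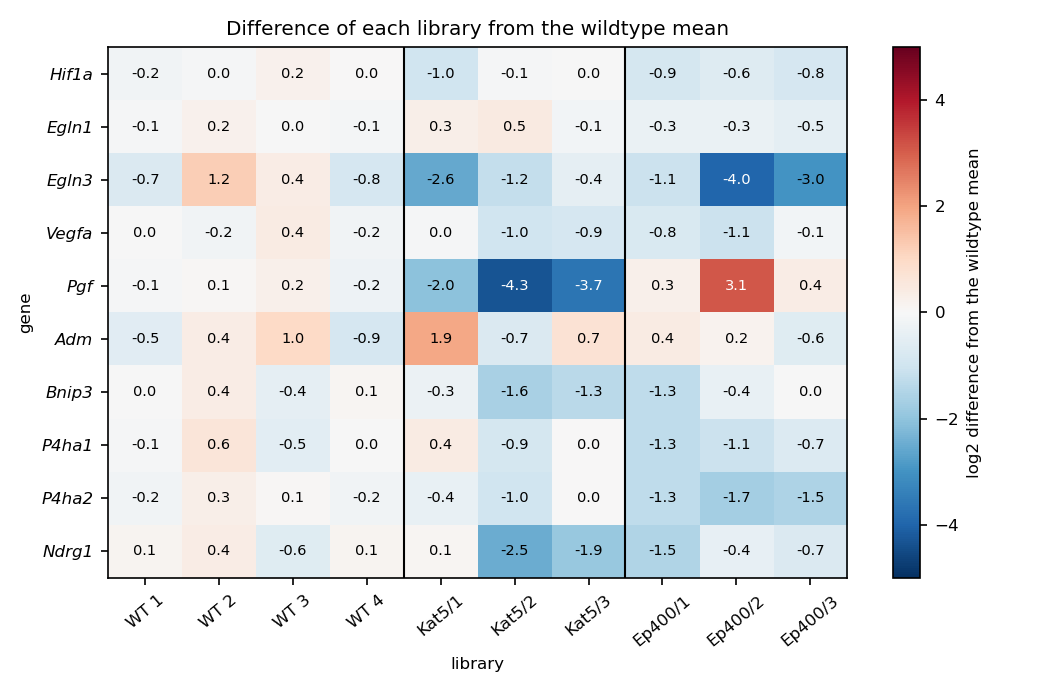
Log2 difference of each library from the mean of the 4 wildtype libraries (colour and printed value) for the 10 genes in rows; vertical lines separate wildtype, Kat5 ko and Ep400 ko libraries. *Hif1a*, *Egln1*, *Egln3*, *P4ha1* and *P4ha2* are negative in every Ep400 ko clone, as are *Vegfa*, *Bnip3* and *Ndrg1*, with *Bnip3* at only −0.0244 in Ep400/3. *Pgf* is negative in every Kat5 ko and positive in every Ep400 ko clone, and *Egln3* and *Bnip3* are also negative in every Kat5 ko clone. *Hif1a* is near the wildtype mean in Kat5/2 (−0.0683) and Kat5/3 (−0.00393), and *Vegfa* in Kat5/1 (−0.0411).

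To see which of the genes differed between the knockouts, the Ep400 ko clones were compared directly with the Kat5 ko clones. Only *Pgf* passed, with a log2-fold change of 4.94 (SE 1.06, 30.8-fold higher in Ep400 ko, adjusted p = 0.0407, edgeR), so that 1 of the 10 genes was called, against 7.32% of 13587 genes in either direction and 4.34% higher. The call was lost when any clone other than Kat5/1 was left out, with log2-fold changes of 3.37 to 5.37 and adjusted p of 0.0502 to 0.149 in edgeR. DESeq2 called 4 of the 10, against 22.7% of all genes. For 3 genes the clones of the knockouts did not overlap, against 38.5% of all genes. Besides *Pgf* these were *Egln1* (log2-fold change −0.64, adjusted p = 0.0824, edgeR) and *P4ha2* (−1.13, adjusted p = 0.0572, edgeR), both lower in Ep400 ko. For *Hif1a* the difference was −0.51 (SE 0.274, adjusted p = 0.229, edgeR), and without Kat5/1 it was −0.77 and passed (adjusted p = 0.0374, edgeR). The median log2-fold change was −0.577 over the 10 genes and 0.00627 over all genes tested.

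Beyond these lists, 29 further hypoxia targets, *Ndrg1* among them, could be tested for Ep400 ko. Of these 3 rose and 8 fell, where 13.9% of all genes passed. The carbonic anhydrase *Car12* fell to 4.67 ± 0.967 CPM from 30.0 ± 9.59 CPM (log2-fold change −2.68, adjusted p = 0.00359, edgeR), and the mitochondrial adenylate kinase *Ak4* fell to 0.844 ± 0.388 CPM from 18.5 ± 15.0 CPM (−4.44, adjusted p = 0.00992, edgeR). *Tmem45a*, a membrane protein of unsettled role, rose to 13.6 ± 8.63 CPM from 0.606 ± 0.572 CPM (4.48, adjusted p = 0.0176, edgeR), and *Rora*, a nuclear receptor, was at 0.781 to 2.71 CPM in the Ep400 ko clones, with at most 0.0783 CPM in wildtype (adjusted p = 0.00597, edgeR). *Vldlr*, a lipoprotein receptor, passed in edgeR for Kat5 ko as 1 of 28 tested genes of this list, where 0.499% of all genes passed. It fell there to 15.3 ± 2.35 CPM from 60.8 ± 16.4 CPM (−2.03, adjusted p = 0.0215, edgeR). In Ep400 ko it rose to 132 ± 16.0 CPM (1.12, adjusted p = 0.014, edgeR). Of the 28 genes for Kat5 ko, 8 had an unadjusted p of at most 0.05 in edgeR, against 22.3% of all genes. DESeq2 called 7 and limma-voom 1, against 11.6% and 0.729%.

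Of all listed hypoxia genes outside glycolysis other than the 10, 8 rose and 13 fell in Ep400 ko among 70 tested, with a median log2-fold change of −0.0587, where 13.9% of all genes passed. For Kat5 ko 1 rose and 1 fell of 68 tested, with a median of −0.0469, where 0.499% of all genes passed. Of these 68, 14 had an unadjusted p of at most 0.05 in edgeR, against 22.3% of all genes. DESeq2 called 13 and limma-voom 2 of them, against 11.6% and 0.729%. For the direct comparison 6 were higher and 4 lower in Ep400 ko, of 70 tested, where 7.32% of all genes passed. Counts of single lists are to be read against the same shares. The glycolytic hypoxia targets had a median log2-fold change of −0.991 for Ep400 ko, where 10 of 18 fell, among them the hexokinase *Hk2* (−1.77, adjusted p = 0.0026), the glucose transporter *Slc2a3* (−1.70, adjusted p = 0.0279), the enolase *Eno1* (−1.32, adjusted p = 0.0131) and the aldolase *Aldoa* (−1.23, adjusted p = 0.00777; all edgeR). For Kat5 ko their median was 0.0417, and 1 of 18 passed in edgeR, where 0.499% of all genes did. This was the aldolase *Aldoc*, which fell to 1.29 ± 0.461 CPM from 13.7 ± 3.86 CPM (−3.43, adjusted p = 0.0208, edgeR). At an unadjusted p of at most 0.05 in edgeR there were 5, against 22.3% of all genes. DESeq2 called 4 and limma-voom 1, against 11.6% and 0.729%. *Slc2a3* was low in each group, at 2.41 ± 0.531 CPM in wildtype, 0.740 ± 0.308 CPM in Ep400 ko and 0.567 ± 0.444 CPM in Kat5 ko. Its Kat5 ko clones also lay below all wildtype libraries (−2.13, adjusted p = 0.129 in edgeR and 0.0218 in DESeq2).

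The mean log2 difference from wildtype was also taken over the genes in each library. For the 10 genes it was −0.175, 0.326, 0.0693 and −0.221 in wildtype libraries 1 to 4, −0.359, −1.28 and −0.752 in Kat5/1 to Kat5/3 and −0.777, −0.628 and −0.763 in Ep400/1 to Ep400/3. The median over the 10 genes was −0.148 to 0.323 in wildtype, −0.174, −0.985 and −0.283 in the Kat5 ko clones and −0.982, −0.528 and −0.646 in the Ep400 ko clones, so that Kat5/1 lay close to wildtype library 4, and the means of the Kat5 ko clones were drawn down by *Pgf* and, in Kat5/1, by *Egln3*. For the glycolytic targets the mean was −0.168 to 0.146 in wildtype, −0.248, −0.301 and −0.0353 in Kat5/1 to Kat5/3 and −0.797, −0.746 and −0.92 in Ep400/1 to Ep400/3. Their medians were 0.0898, −0.165 and 0.103 in the Kat5 ko clones, with a positive sign in Kat5/1 and Kat5/3, and −0.799, −0.814 and −1.07 in the Ep400 ko clones.

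The calls named here from the lists rested to different degrees on single libraries. Of the 7 fits that each left out 1 library, *Ak4*, *Aldoa*, *Car12*, *Eno1*, *Hk2* and *Rora* passed for Ep400 ko in all 7, *Hif1an* in 6 and *Tmem45a* in 5, whereas *Angptl4*, *Calcrl*, *Fam162a*, *Loxl2*, *Plod2* and *Slc2a3* passed in 2. For Kat5 ko, *Aldoc* and *Vldlr* passed in 4 and *Edn1* in 2.

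**Figure D5:**
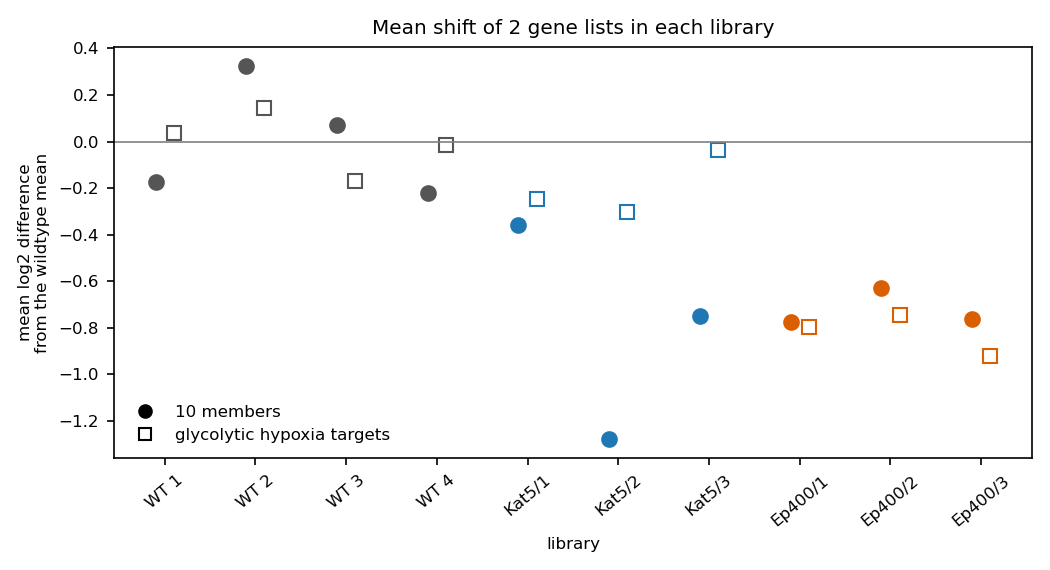
Mean log2 difference from the wildtype mean in each library for the 10 genes (filled circles) and the glycolytic hypoxia targets (open squares); colours mark wildtype, Kat5 ko and Ep400 ko. The 10 genes lie between −0.777 and −0.628 in the Ep400 ko clones and between −1.28 and −0.359 in the Kat5 ko clones, where the glycolytic targets lie between −0.301 and −0.0353. The medians of the glycolytic targets are positive in Kat5/1 and Kat5/3.

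Which transcripts followed each of the genes most closely over the 10 libraries was described by Pearson's r of log2 CPM among 10927 genes with a mean count over 100. All values share the same libraries and groups, so that r describes these libraries only. *Hif1a* was followed most closely by *Thap4* (r = 0.966), *Sox11* (0.958) and *Dusp18* (0.951), *Egln1* by *Zfp664* (0.946), *Ppp2cb* (0.946) and *Nln* (0.933), and *Egln3* by *Depdc5* (0.925), *Rad51c* (0.923) and *Plekhb2* (0.917). *Vegfa* was followed by *Trim46* (0.96), *Dgka* (0.953) and *Sh2d3c* (0.939), *Pgf* by *Hyal1* (0.959), *Arhgap24* (0.954) and *Pex19* (0.952), and *Adm* by *Tmem189* (0.889), *B4galnt1* (0.875) and *Ier5* (0.872). For *P4ha1* the genes were *Dbn1* (0.953), *Rab6a* (0.946) and *Rftn1* (0.943), and for *P4ha2* they were *Eif2d* (0.964), *Arap3* (0.948) and *Krtcap2* (0.945). *Bnip3* was followed by *Lsm10* (0.955), *Ift43* (0.944) and *Ndrg1* (0.944), and *Ndrg1* by *Tmem256* (0.969), *Klf11* (0.958) and *Lsm10* (0.948). *Bnip3* and *Ndrg1* thus shared *Lsm10* and were the only pair of the 10 genes in which 1 was among the 3 closest of the other.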

How the data were processed

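RNA of 4 wildtype, 3 Kat5 ko and 3 Ep400 ko samples of O9-1 cells was sequenced as poly-A libraries. As deposited, the counts are unnormalized whole numbers for each gene, which the authors obtained from reads mapped to mm10. The submitters' processing notes list bcl2fastq 2.20, STAR 2.7.3, DESeq2 1.36.0 and R 4.2.1, while the counting program, its strand setting and the annotation release were not given in the sources used here. The authors' normalized tables were not used.

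Computation used R 4.3.3 with edgeR 4.0.16, limma 3.58.1 and DESeq2 1.42.0. For each comparison, genes were filtered with filterByExpr, scaled by TMM and put to the quasi-likelihood test of edgeR on the libraries of the 2 groups only, and p-values were adjusted over all genes by the Benjamini-Hochberg method. CPM were scaled over all 10 libraries, and levels per kb use exon lengths of GENCODE M21 (GRCm38). No pair of replicates was the same library (chi-square of at least 28.1 per degree of freedom between their counts). The closest pair was wildtype libraries 1 and 4, and the other wildtype pairs were at 46.5 to 138. Alternatives were DESeq2, limma-voom, RLE scaling, no filter, a fit of all libraries, chromosome offsets, a replicate block, a robust quasi-dispersion (added after values had been seen) and each library left out.

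The 10 genes and the lists were chosen with earlier results of these data known. Named from the lists were at most 4 called genes per list and comparison, by size of change, together with *Epas1*, *Arnt*, *Vhl*, *Flt1*, *Kdr* and the targeted genes. Other genes of the lists (*Bnip3l*, *P4ha3*, *P4hb*) are named for their relation to the 10. For each of the 10 genes, the 3 with the highest Pearson's r were named. The result of 1 gene of the lists that the rule would name is not reported here.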

Additional observations from a re-analysis of the deposited data

Results flagged for a closer look

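The knockouts differed directly from each other, by the quasi-likelihood test of edgeR with Benjamini-Hochberg adjustment, in 7 named genes with counts in both. All but *Pgf* had been named because they passed against wildtype, in tests that used the same clones. Their number is therefore not comparable with the 7.32% of all genes that passed. *Pgf* was higher in Ep400 ko than in Kat5 ko by 4.94 on the log2 scale (adjusted p = 0.0407), higher in 3 of 3 Ep400 ko clones. Its call was lost when any clone other than Kat5/1 was left out. *Vldlr* was higher by 3.10 (adjusted p = 0.00659), and it was the gene among these 7 that passed against wildtype in both knockouts, lower in all Kat5 ko and higher in all Ep400 ko clones. Lower in Ep400 ko than in Kat5 ko were *Ak4* with −4.56 (adjusted p = 0.0197), *Car12* with −2.67 (adjusted p = 0.0343), *Hk2* with −2.63 (adjusted p = 0.0197), *Eno1* with −1.71 (adjusted p = 0.0317) and *Fam162a* with −1.43 (adjusted p = 0.0471). *Rora* passed as well (adjusted p = 0.0281), but it had no counts in the Kat5 ko clones, and no fold is given. For *Hk2*, Kat5/1 to Kat5/3 were at 55.6, 108 and 120 CPM, wildtype at 43.8 to 66.1 CPM and the Ep400 ko clones at 13.8 to 17.3 CPM.

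*Epas1* differed between the knockouts by 3.62 on the log2 scale without passing the threshold (adjusted p = 0.0676, edgeR). It was at 0.415, 0.98, 2.40 and 0.663 CPM in wildtype libraries 1 to 4. Kat5/1 to Kat5/3 had 0.0551, 0.857 and 0.0881 CPM, and Ep400/1 to Ep400/3 had 6.05, 2.03 and 4.08 CPM. Each knockout thus overlapped with the wildtype range.

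A wildtype library far from the other 3 was found for 3 of 32 named genes tested, where chance gives about 1 in 20. *Flt1* was at 86.0 CPM in wildtype library 3 and at 168 to 178 CPM in the others, a gap of 0.897 of the range. *Plod2* was at 63.6 CPM in wildtype library 2 and at 26.0 to 28.1 CPM in the others (0.943 of the range), and *Aldoc* at 7.92 CPM in wildtype library 2 and at 15.4 to 16.0 CPM in the others (0.929 of the range). The cause was not tested.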

How the results depend on the processing

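Of the 10 genes, edgeR called 0 for Kat5 ko, 3 for Ep400 ko and 1 between the knockouts. For Kat5 ko, 1 was called with no filter, 1 with limma-voom and 2 with DESeq2, and with single libraries left out 0 to 4, the 4 without Kat5/1. For Ep400 ko, 1 was called in a fit of all 10 libraries (*P4ha2*) and 6 with DESeq2, and 2 to 5 with single libraries left out, the 5 without Ep400/3. Between the knockouts, 2 were called with no filter, 3 in the fit of all libraries, 0 with limma-voom and 4 with DESeq2, and 0 to 2 with single libraries left out. RLE scaling, chromosome offsets and the robust quasi-dispersion left the counts at 0, 3 and 1. Among all genes, Kat5 ko had 67 calls, 245 with no filter, 26 in the fit of all libraries, 1489 with DESeq2 and 1 to 2651 with single libraries left out. Ep400 ko had 1917 calls, 1273 in the fit of all libraries, 3131 with DESeq2 and 826 to 2016 with single libraries left out. Without wildtype library 1, 2, 3 or 4 in turn, Kat5 ko had 1, 58, 33 and 2 calls. Ep400 ko then had 826, 1000, 1668 and 873. Between the knockouts there were 994 calls, 1803 with no filter, 3539 in the fit of all libraries, 3067 with DESeq2 and 4 to 2537 with single libraries left out. The causes were not tested.

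The labels give replicate numbers to all groups. Residuals of libraries with the same number correlated at −0.0957 to 0.223, so that the numbers were not taken as pairs. With the replicate block, 0 of the 10 genes were called for Ep400 ko and 0 between the knockouts. The adjusted p was then 0.0503 for *P4ha2*, 0.0849 for *Hif1a* and 0.142 for *P4ha1* (Ep400 ko) and 0.0806 for *Pgf* (between the knockouts). Among all genes the replicate block left 0 calls for Kat5 ko, 170 for Ep400 ko and 213 between the knockouts, from a fit with fewer residual degrees of freedom.

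With single libraries left out, 5 log2-fold changes that had not passed turned direction. They ranged for Kat5 ko from −0.035 to 1.25 (*Adm*) and −0.44 to 0.15 (*P4ha1*), for Ep400 ko from −0.39 to 0.27 (*Adm*), and between the knockouts from −0.38 to 0.29 (*Vegfa*) and −0.27 to 1.32 (*Ndrg1*). *Hif1a* for Ep400 ko ranged from −0.89 to −0.73 and *P4ha2* from −1.63 to −1.40, and both passed each time.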
